A study of Mus musculus with 3 samples.

Results

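Genomic DNA of a medulloblastoma that arose in a mouse given 1.5 Gy of X-rays was compared with DNA from the ear of the same mouse on 1 array. This tumour is 1 of 3 in the series and was taken by its irradiation label. Of 14112 probes listed for the array, 14089 had a value in this tumour and all of them were used. The series holds 2 other tumours, from mice given 0.1 Gy and 0.2 Gy, each set against its own ear DNA on 1 array. All 3 mice were female, of the hybrid C3B6F1 background and Ptch1+/-, and were irradiated on day 1 after birth. Values given at 0.1 Gy or at 0.2 Gy are those of the tumour of that dose. Tumour DNA carried Cy5 and ear DNA Cy3 on every array, and the ear came from the irradiated mouse itself. The disrupted Ptch1 copy is carried in the germ line of these mice, so it is present in both DNAs of an array and is not expected to show in their ratio. No unirradiated tumour is among the arrays, and each dose has 1 tumour, so an effect of dose cannot be told apart from that of the mouse or of the array.

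Medulloblastoma is a tumour of the cerebellum. In Ptch1 heterozygous mice it is thought to arise from granule cell precursors, whose growth is driven by Hedgehog signalling and restrained by the Ptch1 receptor. Loss of the remaining intact Ptch1 copy is a known step in these tumours, and after irradiation of newborn mice such loss is known to occur by deletion of part of the chromosome that carries it. In array comparative genomic hybridisation a deletion appears as a run of neighbouring genome positions with a low ratio, and a gain as a run with a high one. Probe positions, sequences and gene names were not used here, because none of the sources used here pairs them with the feature numbers. Low probes are therefore described with no statement of where they lie or whether they mark losses. The Ptch1 locus itself was not analysed here. Ratios of genomic DNA hold no marker by which the labelled tissue or dose could be checked.

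Values are log2 ratios of tumour over ear, with the median of each array set to 0. Loss of 1 of 2 copies in every cell gives -1 on this scale, and a gain of 1 copy gives 0.58. The log base is not stated in the sources used here. The log2 reading is a working assumption that the values alone do not settle. On a log10 reading every log2 value would be 3.32 times as large, and the lowest and highest signals of the 1.5 Gy tumour, 0.419 and 1.68 times that of the ear on the log2 reading, would be 0.0557 and 5.63 times. Counts of probes beyond 0.5 on either side are a description, since the tumour has 1 array and no replicate.

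The 1.5 Gy array was the narrowest in its centre, yet its lower tail was long. Its robust SD over probes was 0.11, against 0.15 at 0.1 Gy and 0.12 at 0.2 Gy. The lowest ratio in the 1.5 Gy tumour was -1.25, which lay below the lowest of the 0.1 Gy tumour (-0.97) and of the 0.2 Gy tumour (-1.13). The highest ratio in the 1.5 Gy tumour was 0.75, which lay below the highest of the 0.1 Gy tumour (0.97) and of the 0.2 Gy tumour (1.095). By its single lowest and highest probe, the array of the 1.5 Gy tumour thus reached farthest down and least far up of the 3. Beyond single probes, the far end of the low tail was deepest at 0.2 Gy. The 0.1th percentile was -0.93 there, against -0.65 in the 1.5 Gy tumour and -0.55 at 0.1 Gy. At or below -0.9 there were 19 probes at 0.2 Gy, 4 in the 1.5 Gy tumour and 1 at 0.1 Gy. Farther in, the 0.1 Gy tumour was the lowest. Its 1st percentile was -0.40, against -0.34 at 0.2 Gy and -0.33 in the 1.5 Gy tumour.

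**Figure D1:**
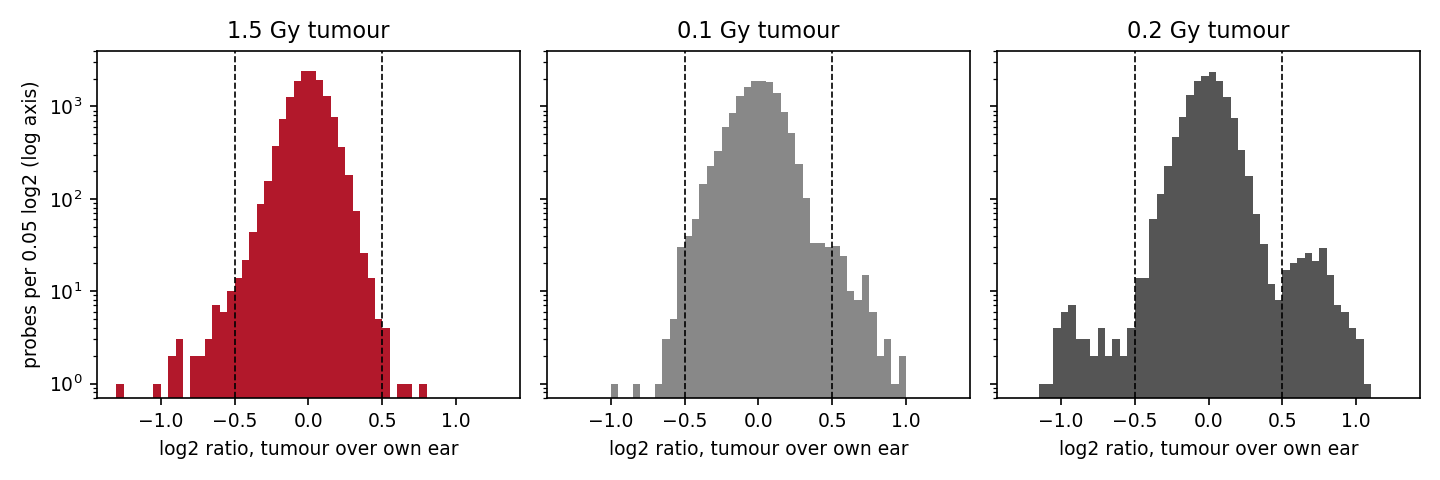
Number of probes per 0.05 log2 (log axis) against the log2 ratio of tumour over own ear, for the 1.5 Gy tumour and the 0.1 and 0.2 Gy tumours. Dashed lines mark -0.5 and 0.5. The 1.5 Gy tumour has 37 probes to the left of the dashed lines and 7 to the right, and lacks the shoulder of high ratios seen in the other 2 tumours.

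The skew to low ratios lay in the outermost probes and not in the body of the distribution. In the 1.5 Gy tumour the 25th and 75th percentiles were -0.077 and 0.077, and the 5th and 95th were -0.20 and 0.20. The 1st and 99th percentiles were -0.33 and 0.29, and the 0.1th and 99.9th were -0.65 and 0.44. The central 90% of the probes was therefore close to symmetric, and the asymmetry grew outward. Skewness was -0.45 over all probes of the 1.5 Gy tumour and 0.0046 over those within 0.3 of the median. Over all probes it was 0.16 at 0.1 Gy and 0.65 at 0.2 Gy, so the 1.5 Gy array was the one with a negative value.

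Counted by size, low probes outnumbered high ones by more as the limit was raised. At 0.2 log2, 736 probes of the 1.5 Gy tumour were low and 668 were high, a ratio of 1.102. At 0.3 log2 these were 205 low (1.46% of the probes) and 125 high (0.887%), a ratio of 1.64. At 0.4 log2 there were 73 low and 26 high probes, and at 0.5 log2 there were 37 low (0.263%) and 7 high (0.0497%), a ratio of 5.29. Past 0.7 log2, 11 low probes and 1 high probe were left, and past 0.8 log2, 7 low probes and no high one (0).

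At 0.2 log2 an excess of low probes was present in the other tumours too, and at 0.3 log2 in the 0.1 Gy tumour. At the lower limit the 0.1 Gy tumour had 1448 low and 1053 high probes, a ratio of 1.38, and the 0.2 Gy tumour 940 and 801. At 0.3 log2 the 0.1 Gy tumour had 517 low probes, 1.72 times the number of its high ones, and the 0.2 Gy tumour had 243 low and 293 high. The arrays parted at larger limits. At 0.5 log2 the 1.5 Gy tumour had 37 low and 7 high probes, the 0.1 Gy tumour 41 low (0.291%) and 102 high (0.723%), and the 0.2 Gy tumour 42 low (0.298%) and 172 high (1.22%). At this limit the number of low probes was thus alike on the 3 arrays, and the arrays differed on the high side.

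A large part of that difference belonged to separate groups of probes on the 0.2 Gy array, a high group of 179 and a low group of 33, each set apart by a minimum in the density of its ratios with a higher density past it. With both groups taken off every array, skewness was -0.51 in the 1.5 Gy tumour, -0.40 at 0.1 Gy and -0.17 at 0.2 Gy. The skew to low ratios was then present on all 3 arrays. The groups were cut from the 0.2 Gy ratios with more high than low probes, so their removal lowers the skewness there by construction. The high group was also raised at 0.1 Gy, with a median of 0.51, so its removal lowers the skewness there too. At 0.5 log2 without these groups, 37 low and 5 high probes were left in the 1.5 Gy tumour, 41 and 3 at 0.1 Gy, and 9 and 0 at 0.2 Gy. The 0 high probes at 0.2 Gy follow from the cut. In this count an excess of low over high probes at this size was not particular to the 1.5 Gy tumour, though the removal favours it on the other 2 arrays.

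In the same count the low probes of the 1.5 Gy tumour reached farther down than those at 0.1 Gy. The 0.2 Gy counts give no such comparison, since the low group taken off held the lowest probes of that array. Without the groups, 21 of its probes were at or below -0.6, against 6 at 0.1 Gy and 3 at 0.2 Gy. At or below -0.7 there were 11 in the 1.5 Gy tumour, 2 at 0.1 Gy and 0 at 0.2 Gy. At or below -0.4 the order was another, with 73 in the 1.5 Gy tumour, 142 at 0.1 Gy and 37 at 0.2 Gy. Over all probes the 0.2 Gy tumour had 36 at or below -0.6 and 31 at or below -0.7, against 21 and 11 in the 1.5 Gy tumour. These are single arrays, so no test of the difference between their tails was made. The groups were taken off after the values had been seen.

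**Figure D2:**
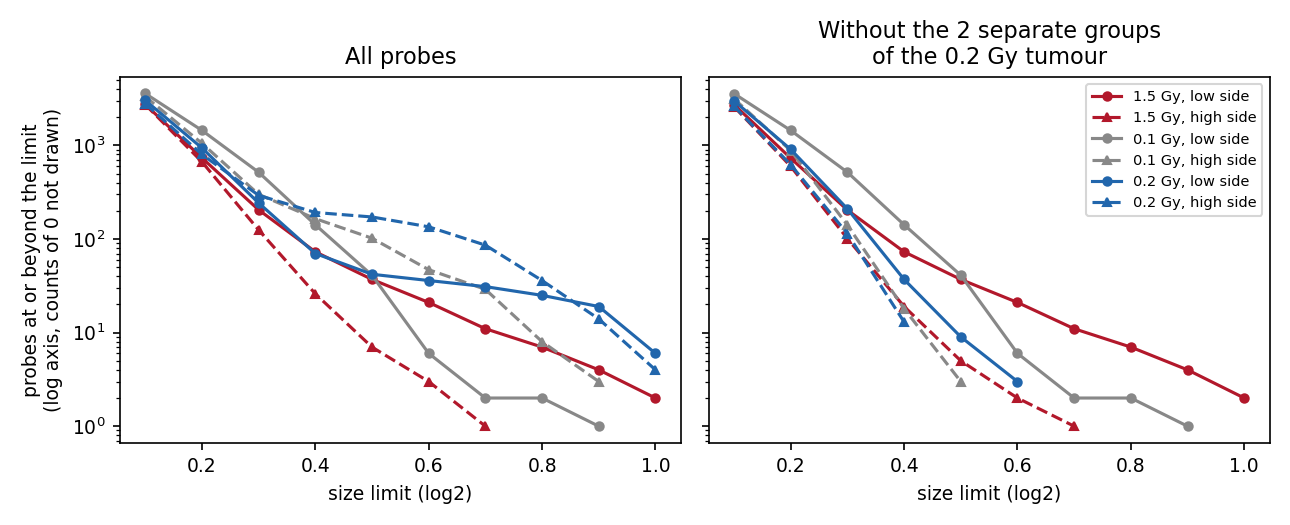
Number of probes at or beyond a size limit (log axis) against that limit in log2, for the low side (solid, circles) and the high side (dashed, triangles) of the 1.5 Gy tumour (red), the 0.1 Gy tumour (grey) and the 0.2 Gy tumour (blue), over all probes (left) and without the 2 separate groups of the 0.2 Gy tumour (right). On the right, where the lowest probes of the 0.2 Gy array are taken off, the red solid line runs farthest, with 11 probes still at or below -0.7. On the left the blue solid line lies above the red one at limits from 0.5 to 1 log2.

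The 37 low probes of the 1.5 Gy tumour had a median of -0.62, with 25th and 75th percentiles of -0.73 and -0.55. The 2 lowest values were -1.25 and -1.003, and the next 5 lay between -0.93 and -0.86. Only these 7 probes were at or below -0.8, the stretch of the tail nearest to the -1 of a loss of 1 of 2 copies. The low probes ran into the rest of the array without a gap at the limit. The values just inside it were -0.502, -0.511 and -0.514, and those just outside were -0.499, -0.488 and -0.479. The density of the ratios had no minimum that set a low or a high group apart (0 of each).

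The same 37 probes were mostly below 0 in the other tumours too. Their median was -0.62 in the 1.5 Gy tumour, -0.22 at 0.1 Gy and -0.16 at 0.2 Gy. In the 0.1 Gy tumour they ranged from -0.97 to 0.26 with 30 below 0, and at 0.2 Gy from -0.56 to 0.14, also with 30 below 0. At 36 of the 37 the 1.5 Gy tumour had the lowest of the 3 values, which the choice of the probes on this array favours. Only 4 of them were at or below -0.3 in both other tumours.

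The low probes were unevenly placed along the feature numbers, the order in which spots are numbered on the array. With the numbers split into 4 equal spans, the spans held 16, 11, 3 and 7 of the 37 in order of number. At the milder limit of -0.3 they held 53, 53, 54 and 45 probes, which is nearly even. The 67 spots with the next lower or higher number had a mean of 0.00045 ± 0.12 (SD over spots) and none was at or below -0.5 (0 of 67). Low values were thus not shared with the adjoining spots. The part of array position in the low values was not tested further.

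A list of probes low in the 1.5 Gy tumour alone was made of those at or below -0.5 there and within 0.2 of 0 in both other tumours. It held 12 of the 14075 probes with a value on all 3 arrays (0.0853%), which is 32.4% of the 37 low probes. The other 25 low probes were farther than 0.2 from 0 in at least 1 other tumour. The 12 averaged -0.72 ± 0.20 in the 1.5 Gy tumour, -0.015 ± 0.11 at 0.1 Gy and -0.085 ± 0.085 at 0.2 Gy (SD over 12 probes each). Their 1.5 Gy values ran from -1.25 to -0.55, and the median corresponded to 0.644 times the ear signal. Being near 0 in the other tumours is the rule that chose them and is no finding.

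The same rule gave a list of like length at 0.1 Gy. It held 12 probes for the 1.5 Gy tumour, 10 for the 0.1 Gy tumour and 29 for the 0.2 Gy tumour, and 26 of the 29 belonged to the separate low group of that array. Outside the group the 0.2 Gy tumour had 3. With the limit for low set at -0.3, the lists held 72 probes for the 1.5 Gy tumour, 209 for the 0.1 Gy tumour and 60 for the 0.2 Gy tumour, 34 of them outside its separate groups. The 1.5 Gy tumour was second of the 3 at both limits, so a count of probes low in 1 tumour alone did not single it out.

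The lowest probe of this list was feature 2122. It had -1.25 in the 1.5 Gy tumour, against -0.037 at 0.1 Gy and 0.015 at 0.2 Gy. It was the lowest probe of the whole 1.5 Gy array and lay close to the median of both others. The next lowest was feature 5108, with -0.87 in the 1.5 Gy tumour, 0.016 at 0.1 Gy and -0.16 at 0.2 Gy. Its 1.5 Gy signal was 0.548 times that of the ear. Below these, 3 more of the 12 lay between -0.86 and -0.77 and the other 7 between -0.65 and -0.55.

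**Figure D3:**
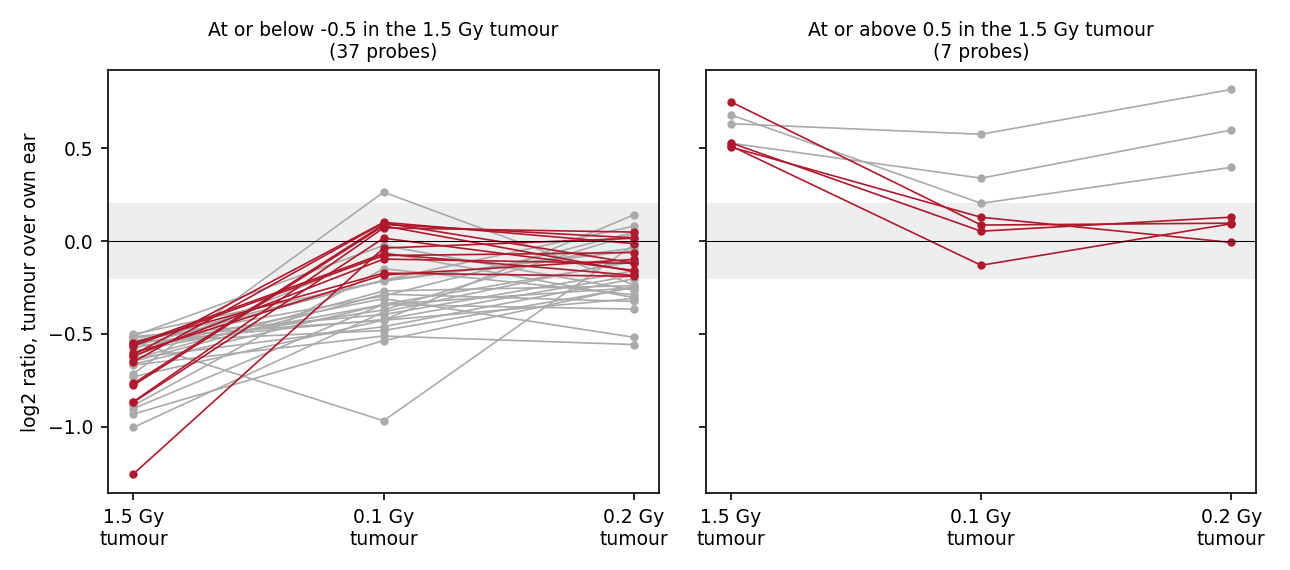
Log2 ratio of tumour over own ear in the 1.5, 0.1 and 0.2 Gy tumours for the 37 probes at or below -0.5 (left) and the 7 probes at or above 0.5 (right) in the 1.5 Gy tumour. Each line is a probe, the shaded band is within 0.2 of 0, and red lines are the 12 low and 4 high probes that lie in the band in both other tumours. Most grey lines on the left stay below 0 in all 3 tumours.

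On the high side the 1.5 Gy tumour held few probes and no set of them. The 7 probes at or above 0.5 lay between 0.51 and 0.75 with a median of 0.53. Values just inside the limit were 0.507, 0.513 and 0.528, and those just outside were 0.477, 0.474 and 0.473. Of the 7, 4 were within 0.2 of 0 in both other tumours and 2 were at or above 0.3 in both. The highest was feature 13400, with 0.75 in the 1.5 Gy tumour, 0.087 at 0.1 Gy and 0.097 at 0.2 Gy. It was followed by feature 8932, with 0.68 in the 1.5 Gy tumour, 0.20 at 0.1 Gy and 0.40 at 0.2 Gy. Feature 13400 was thus raised in the 1.5 Gy tumour and near 0 elsewhere, whereas feature 8932 was above 0 on all 3 arrays. Probes high in 1 tumour alone by the rule used for low probes numbered 4 in the 1.5 Gy tumour, 0 at 0.1 Gy and 3 at 0.2 Gy, and those 3 at 0.2 Gy lay in the separate high group of that array. With the limit at 0.3 these lists held 41, 60 and 40 probes, so the order rested on the limit.

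Probes that were high in both other tumours were mildly raised in the 1.5 Gy tumour. At 99 probes both other tumours were at or above 0.5, a list that makes no use of the 1.5 Gy array. These 99 had a median of 0.21 in the 1.5 Gy tumour, against 0.59 at 0.1 Gy and 0.75 at 0.2 Gy. Their 5th and 95th percentiles in the 1.5 Gy tumour were 0.014 and 0.39, and 95 of the 99 were above 0. At or above 0.3 there were 18 (18.2%), against 0.887% of all probes of this array, and at or above 0.5 there was 1. The 1.5 Gy tumour had the lowest of the 3 values at 98 of the 99, an order that choosing on the other 2 arrays favours. The arrays also correlated over all probes, with Pearson's r of 0.448 for the 1.5 Gy array with that of 0.1 Gy and 0.576 with that of 0.2 Gy, so a raised median at these probes was to be had from that correlation too. Both coefficients run over 14075 probes, and probes are not replicates.

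The relation to the other tumours bent at the upper end. With probes sorted by the mean of the 0.1 and 0.2 Gy tumours, the 1.5 Gy median went up steadily to 0.22 in the 60 probes between 0.3 and 0.4. It was lower, at 0.12, in the 31 probes between 0.4 and 0.5 and again 0.12 in the 49 probes between 0.5 and 0.6. It was 0.18 in the 51 probes between 0.6 and 0.7 and 0.25 in the 44 above 0.7. The high group of the 0.2 Gy tumour supplied 6 of the 60 probes below the bend, 26 of the next 31 and all 144 above them. The 60 probes with milder ratios in the other tumours thus had a higher 1.5 Gy median than the probes between 0.4 and 0.7 there. The same appeared in probes between 0.3 and 0.5 in each of the other tumours, which numbered 32 and had a 1.5 Gy median of 0.27, with 10 at or above 0.3 (31.3%).

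Probes low in both other tumours were low in the 1.5 Gy tumour as well. The 93 probes at or below -0.3 in both had a median of -0.24 in the 1.5 Gy tumour, against -0.37 at 0.1 Gy and -0.35 at 0.2 Gy. Of these, 88 were below 0 in the 1.5 Gy tumour and 29 (31.2%) were at or below -0.3, against 1.46% of all its probes. Their highest 1.5 Gy value was 0.40. As at the probes high in both, a shifted median here was to be had from the correlation between the arrays too. The 33 probes of the separate low group of the 0.2 Gy tumour lay between -0.36 and 0.21 in the 1.5 Gy tumour, with 1 at or below -0.3 and none at or below -0.5 (0 of 33).

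**Figure D4:**
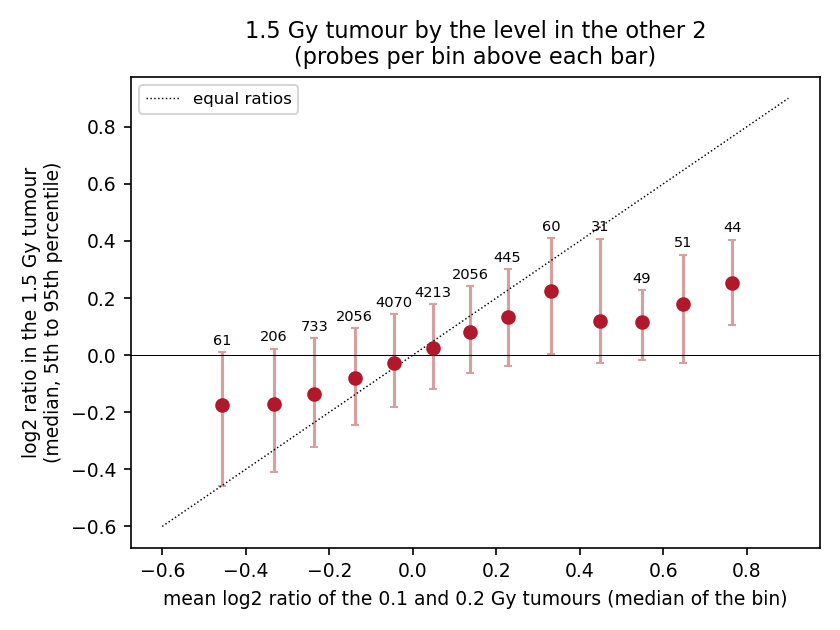
Log2 ratio in the 1.5 Gy tumour (point: median, bar: 5th to 95th percentile over probes) against the mean log2 ratio of the 0.1 and 0.2 Gy tumours, in bins with the number of probes above each bar. The dotted line marks equal ratios. The 1.5 Gy median reaches 0.22 in the bin of 60 probes and is 0.12 in the next 2 bins.

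With the part that the other tumours predict taken off, the skew to low ratios stayed. The prediction was a straight-line fit on both other arrays over probes outside the 2 groups, and it accounted for 37.6% of their variance in the 1.5 Gy tumour. The slope was 0.57 on the 0.2 Gy array and 0.052 on the 0.1 Gy array. The remainders had a skewness of -0.62, with 1st and 99th percentiles of -0.32 and 0.24. At or below -0.5 there were 29 remainders, 4 of them in the high group of the 0.2 Gy tumour, and at or above 0.5 there were 14. Of the 37 low probes 21 stayed at or below -0.5, and of the 7 high probes 2 stayed at or above 0.5. The prediction shifts both groups by construction. The high group had a mean remainder of -0.25, and 10 of the 14 high remainders were probes of the low group. Outside the 2 groups the remainders had a skewness of -0.73, with 25 at or below -0.5 and 4 at or above 0.5.

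The 1.5 Gy tumour was then tested against the mean of the other 2 at each probe with limma. The spread in this test is that between the 0.1 and 0.2 Gy tumours, which includes any effect of dose between them, and the lone 1.5 Gy array was assumed to vary as they do. At an adjusted p under 0.05 limma called 103 of 14075 probes lower in the 1.5 Gy tumour (0.732%) and 8 higher (0.0568%). At an unadjusted p under 0.05 the counts were 506 lower and 576 higher, so the excess of lower probes lay in the largest differences. The assumption of equal spread was not met in full. Over the 13781 probes within 0.5 on all 3 arrays, the difference had an SD of 0.112, against the 0.100 that the spread between the other 2 tumours gives, so limma's p-values are too small. With the standard error widened by that factor limma called 49 lower and 3 higher, and with limma's trend and robust settings 22 lower and 6 higher.

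Of the 103 lower probes, 77 belonged to the high group of the 0.2 Gy tumour. That group was chosen on an array that enters the difference, so its calls are a description, and at most of these probes the 1.5 Gy tumour was not low. In all, 69 of the 103 were above 0 in the 1.5 Gy tumour. The group's median difference was -0.45, against -3.3e-06 over all probes tested. Most calls of lower in this run were thus at probes with high ratios in the other tumours. That majority rested on the settings. With the standard error widened, 34 of the 49 lower probes were in the high group, and with the trend and robust settings 4 of the 22.

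The other 26 of the 103 lower probes were of another kind. In the 1.5 Gy tumour 25 of them were below 0 and 24 were at or below -0.3. Their median was -0.61 in the 1.5 Gy tumour, against 0.086 at 0.1 Gy and 0.0010 at 0.2 Gy, and their differences ran from -1.24 to -0.44. This contrast is a description, since the probes were picked for a large negative difference outside the high group. With the standard error widened 15 probes were called lower outside the high group, and with the trend and robust settings 18 were. The 26 included 10 of the 12 probes low in the 1.5 Gy tumour alone, a list that was chosen on the same difference.

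The difference was -1.24 at feature 2122 and -0.80 at feature 5108. Both features were picked for their low value in the 1.5 Gy tumour, so their differences are a description and their p-values are not given as support. The 1.5 Gy tumour is a single array, and an exact permutation of which tumour stands alone cannot go below p = 0.333 at a single probe. The limma calls therefore rest on the spread shared over probes and not on replicates of this tumour.

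The 8 higher probes were fewer and less uniform. Their 1.5 Gy values ran from 0.11 to 0.75 with a median of 0.38, against medians of -0.16 at 0.1 Gy and -0.17 at 0.2 Gy. Only 3 of them were at or above 0.5 in the 1.5 Gy tumour, and at 4 the mean of the other tumours was below -0.2. A call of higher therefore often went with a low ratio in the other tumours. Feature 13400, with a difference of 0.66, was among the 8, and feature 8932, with 0.38, was not. Both had been picked as the highest of the 1.5 Gy array.

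**Figure D5:**
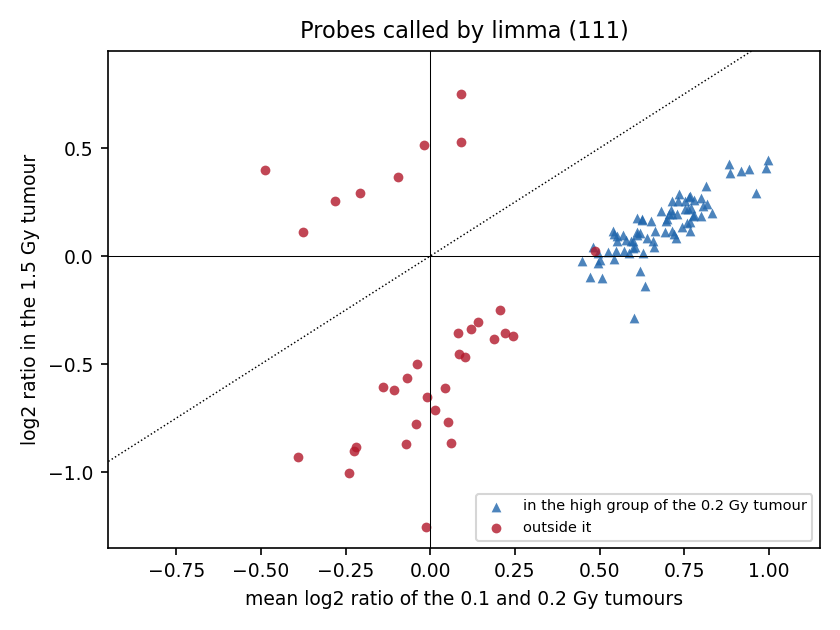
Log2 ratio in the 1.5 Gy tumour against the mean log2 ratio of the 0.1 and 0.2 Gy tumours for the 111 probes called by limma. Blue triangles are the 77 called probes in the high group of the 0.2 Gy tumour, red circles the others, and the dotted line marks equal ratios. The triangles lie right of 0.4 on the horizontal axis and most lie above 0 on the vertical one, while nearly all red circles under the dotted line are below 0 in the 1.5 Gy tumour.

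Probes without a value in the 1.5 Gy tumour had medians near 0 in the others. The 1.5 Gy array lacked a value at 23 probes, 16 of them in the last of the 4 spans of feature numbers. In the 0.1 Gy tumour these 23 had a median of -0.036 and ranged from -0.54 to 0.20. In the 0.2 Gy tumour 19 of them had a value, with a median of 0.0087 and a range from -0.47 to 0.33.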

How the data were processed

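Digestion with AluI and RsaI and labelling for Agilent oligonucleotide arrays are described per the labels' protocols, and the submitters' processing notes list Agilent Feature Extraction 9.5.1. The authors deposited 1 log ratio per array feature, read here as log2. The correction of background and dyes and the base of the logarithm are in none of the sources used here. Dyes were not swapped. The depth of signal is unknown, since only ratios were used.

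Each array was centred on its median, with no loess or quantile step. A separate group was called on the density of an array's ratios (bandwidth 0.04) where a minimum lay more than 0.3 from the median, the density past it rose to 1.5 times the minimum or more, and 20 probes or more lay past it. The difference of the 1.5 Gy tumour from the mean of the other 2 was tested with limma 3.58.1 in R 4.3.3 (2-sided, Benjamini-Hochberg over 14075 probes), with the 1.5 Gy array unreplicated. The p-values of this test are too small here, since its assumption of equal spread was not met in full. The factor for the wider standard error came from the 13781 probes within 0.5 on all 3 arrays, which leaves out the tails. Whether the wider standard error keeps false calls to the level of the adjusted p was not tested on the measured ratios. At most 2 features per direction were named: the lowest of those low in the 1.5 Gy tumour alone and the highest of the array. Spots of 1 probe could not be averaged, because feature numbers do not show which share a probe. The planned gene list and values per gene or segment were not run. Lists, limits and tests were chosen with earlier results of these data known. Python 3.11.15, numpy 2.4.6 and pandas 2.3.3 were used.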

Additional observations from a re-analysis of the deposited data

Results flagged for a closer look

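The difference between the 1.5 Gy tumour and the mean of the other 2 tumours passed limma's test at 103 probes lower and 8 higher in the 1.5 Gy tumour. Features 2122, 5108 and 13400 were among them, but were picked for their values on the 1.5 Gy array, so their differences of -1.24, -0.80 and 0.66 are a description. Most of the probes called lower had high ratios in the other tumours and were above 0 in the 1.5 Gy tumour. The p-values of limma are too small here, since its assumption of equal spread was not met in full. No explanation was tested.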

How the results depend on the processing

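Centring on the mode or leaving values as deposited kept the 37 low and 7 high probes within 1.5 times, and leaving them as deposited also kept the count of 12 low in the 1.5 Gy tumour alone. By construction the counts moved with the limits. At 0.3 log2 there were 205 low, 125 high and 72 low alone, at 3 times the robust SD 131, 59 and 49, and at 1 log2 2 low and 0 high. With near 0 taken as 0.1 or 0.3, 4 or 20 were low alone. On a log10 reading the counts were 1459 low, 1415 high and 90 low alone. After removal of what the other arrays predict, 14 were high, and the count of low probes (29) stayed within 1.5 times. Skewness kept its sign, and was -0.73 with that removal and without the 2 groups. The limma counts of 103 lower and 8 higher probes became 22 lower with trend and robust settings, 193 and 63 with each array divided by its robust SD, 20 higher as deposited, 27 lower without the 2 groups, and 49 and 3 with the wider standard error. The removal of the groups, alone or with the predicted part, and the wider standard error were chosen after seeing the data. Against only 1 other tumour there is no residual degree of freedom and no test. Probes at least 0.5 apart then numbered 50 to 141 lower and 36 to 46 higher, with 141 and 46 against the 0.2 Gy tumour alone and 50 and 36 against that of 0.1 Gy alone. The cause was not tested. Each ratio pairs a tumour with the ear of its own mouse, but a dose is represented by 1 tumour, so no dose is replicated. Signal over background was not examined, and single arrays limit every value here.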
